A study of Homo sapiens with 12 samples.

Results

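The T-helper 1 regulators and the interferon-gamma axis are described here through 10 genes: the transcription factors TBX21, EOMES and HLX, the cytokine gene IFNG with its receptor chains IFNGR1 and IFNGR2, the interleukin-12 subunit IL12A, and the receptor chains IL12RB1, IL12RB2 and IL27RA. They were chosen by name, and each had 1 probe set with a single gene symbol, so the 10 genes are 10 of 32321 probe sets and of 18404 named genes. Levels were read on 12 whole-transcript arrays of the established Hodgkin lymphoma cell lines L-1236 and U-HO1, tumour lines of B-cell origin. Each line had 3 arrays from cells given an shRNA against GATA-3 (called knockdown below, after the label) and 3 from cells given a non-functional control shRNA. L-1236 grew in RPMI 1640 and U-HO1 in IMDM, so line and medium cannot be told apart. Every sample, controls included, came from transduced cells taken 3 days later by their GFP signal, with RNA from 25000 such cells amplified. The sources used here do not give the shRNA sequences or their number. How the 3 samples of a group were kept independent is not stated, so p-values measure the spread between these samples, which may be technical.

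In T cells, T-bet (the product of TBX21) and its relative eomesodermin (EOMES) switch on IFNG, and the homeobox factor HLX acts with T-bet. Interleukin-12, a dimer of the IL12A and IL12B products, signals through IL12RB1 and IL12RB2 to STAT4, while interleukin-27 signals through IL27RA and IL6ST. Interferon gamma binds IFNGR1, and IFNGR2 brings in the kinase that starts the signal. GATA-3 directs the opposing T-helper 2 programme and restrains TBX21 and IFNG in T cells.

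The start regions of the genes are shown for the ligand, for the receptor chain that differed most between the lines by p-value, and for the gene that varied most within a line. The first stretches are the 250 bases before the RefSeq start (GRCh38.p14) of IFNG, at chr12:68159741-68159990 on the minus strand, and of IFNGR2, at chr21:33403163-33403412 on the plus strand. Capitals mark a match to TTCNNNGAA, the letters of a gamma-activated (STAT-binding) site.

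IFNG: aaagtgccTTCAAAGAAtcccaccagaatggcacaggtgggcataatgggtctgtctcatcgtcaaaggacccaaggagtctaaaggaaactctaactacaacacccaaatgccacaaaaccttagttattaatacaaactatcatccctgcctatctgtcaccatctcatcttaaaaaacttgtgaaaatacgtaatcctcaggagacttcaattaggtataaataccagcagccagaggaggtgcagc

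IFNGR2: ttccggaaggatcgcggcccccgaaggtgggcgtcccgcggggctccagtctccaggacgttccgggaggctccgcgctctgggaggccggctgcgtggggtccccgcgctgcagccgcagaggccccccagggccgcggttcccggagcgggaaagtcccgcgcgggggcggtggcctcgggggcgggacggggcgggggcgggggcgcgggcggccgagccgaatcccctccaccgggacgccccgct

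The third is a stretch of 30 bases over the start of IL12A, at chr3:159988826-159988855 on the plus strand, from base -9 to base 21 counted from the start. Its capitals mark the reverse complement of 2 copies of GAAA set 2 bases apart, the core letters of an interferon-stimulated response element.

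IL12A: actgcgaacaTTTCGCTTTCattttgggcc

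All 10 genes matched the RefSeq promoter table, 2 of them, IFNGR1 and IL12RB2, with 2 starts each. Of the 300 bases in a window of that table, which runs past the start, 41.0% were G or C at IFNG, with 2 CpG pairs, against 80.0% and 44 CpG pairs at IFNGR2 and 64.0% and 24 at IL12A. The response-element core was found on either strand in the window of IL12A and of no other of the 10 genes, and in 3.57% of all 35116 promoters of that length. TTCNNNGAA was found at IFNG and at no other of the 10, against 7.66% of all promoters. The T-box core AGGTGT lay in 1 of the windows, that of IL12RB2 (11.4% of all), TGATAA in that of IL12RB1 (7.53%), and AGATAA in none (10.3%). The motifs were searched on both strands and chosen after the values had been seen, and a match is a description of letters and not a binding site.

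On the log2 intensity scale the medians of the arrays were 6.96 to 7.09, and arrays of 1 line correlated at 0.986 to 0.995 across probe sets. GATA3, the target of the shRNA, overlapped between the labels in both lines, at 9.95 to 10.69 on control and 10.00 to 10.80 on knockdown arrays of L-1236, and at 10.24 to 11.24 and 10.12 to 11.07 in U-HO1. Arrays are therefore called by their labels only. Background is not given for these arrays. As a yardstick of dim signal, 350 probe sets of olfactory receptors, silent in blood cells, had means from 5.27 (5th percentile) to 6.73 (95th percentile). IFNG and IL12RB2 in both lines and IL12A in U-HO1 lay inside that span, so whether they exceeded background is unknown.

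The Hodgkin marker TNFRSF8 (CD30) read 9.59 and 10.27 on control arrays of L-1236 and U-HO1. Of 12 Hodgkin markers 5, TNFRSF8 among them, were higher and 4 (CD40, CD80, CD86 and BATF3) were lower in U-HO1 on control arrays. Of all probe sets, 13.3% were higher and 12.5% lower in U-HO1 on control arrays at a limma adjusted p under 0.05. Of 10 measured B-cell markers 1 (SPIB) was higher and 3 were lower in U-HO1 on control arrays: PAX5 (9.61 in L-1236, 7.64 in U-HO1), CD22 (8.92, 6.37) and POU2AF1 (8.72, 7.41). MS4A1 lay at 5.76 and 5.81. T cells and natural killer cells are the usual sources of TBX21, EOMES and IFNG. Of 12 T-cell markers 0 were higher and 1 was lower in U-HO1 on control arrays, CD4 at 8.50 in L-1236 and 6.80 in U-HO1. CD3D stood at 5.96 in both lines. List means per control array were 6.51 to 6.57 in L-1236 and 6.31 to 6.50 in U-HO1. Of 12 natural killer and cytotoxic markers 0 differed on control arrays. There NKG7 read 7.59 and 7.79 and GZMB 7.01 and 7.18 in L-1236 and U-HO1. On knockdown arrays, where 24.7% of all probe sets passed, NKG7 and GZMB were higher in U-HO1 by 0.44 and 0.32. The mean of the 12 listed genes ran from 6.03 to 6.14 over the 6 arrays of L-1236 and from 6.13 to 6.22 over those of U-HO1. Its part in the differences of EOMES and IFNG was not tested. Of 12 monocyte and dendritic cell markers 1, ITGAX, was higher in U-HO1.

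**Figure D1:**
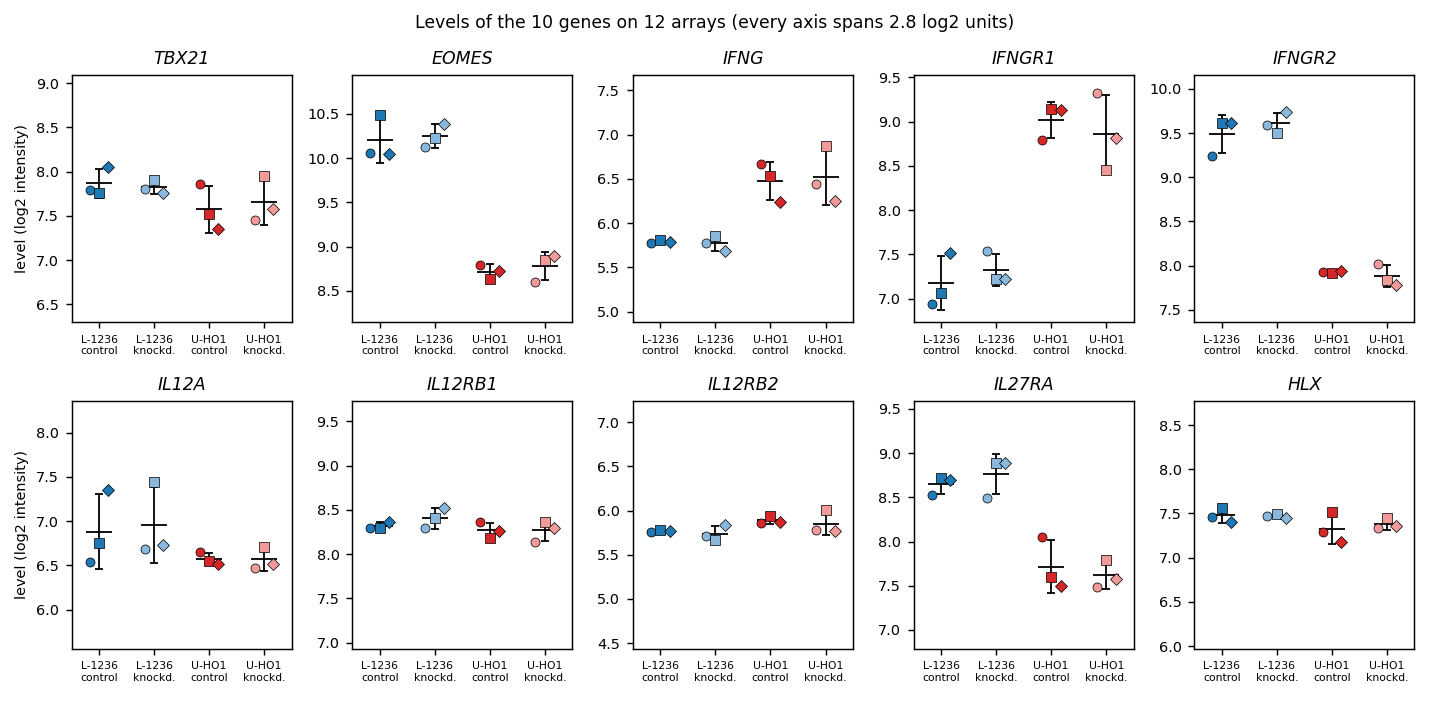
Log2 intensity (vertical axes, all of the same span) of the 10 genes on every array, by line and label (horizontal axes), with circle, square and diamond for replicates 1, 2 and 3, and the mean with its SD in black (n = 3). EOMES, IFNGR2 and IL27RA were higher on all 6 arrays of L-1236, and IFNG and IFNGR1 on all 6 of U-HO1.

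The transcription factors differed between the lines in EOMES only. On L-1236 arrays EOMES read 10.06, 10.49 and 10.05 for control replicates 1, 2 and 3 and 10.12, 10.23 and 10.39 for knockdown. On U-HO1 arrays it read 8.79, 8.63 and 8.73 for control and 8.60, 8.85 and 8.90 for knockdown. Every L-1236 array lay above every U-HO1 array, and the labels overlapped within each line. The control means were 10.20 ± 0.25 in L-1236 and 8.72 ± 0.08 in U-HO1 (SD, n = 3), so EOMES was 2.80-fold lower in the latter, which is -1.48 on the log2 scale (95% interval -1.76 to -1.21, limma adjusted p = 3.38e-06).

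TBX21 read 7.79, 7.76 and 8.05 on control and 7.80, 7.90 and 7.76 on knockdown arrays of L-1236. In U-HO1 it read 7.86, 7.52 and 7.35 on control and 7.45, 7.95 and 7.57 on knockdown arrays. The lines overlapped, and U-HO1 held both the lowest arrays and 1 of the highest. The log2 difference between the lines on control arrays was -0.29 (95% interval -0.61 to 0.03, limma adjusted p = 0.194). Without U-HO1 control replicate 1 it was -0.44 with an adjusted p of 0.0499, and over the other single arrays left out it did not pass. HLX lay between 7.41 and 7.57 in L-1236 and between 7.18 and 7.51 in U-HO1, and differed by -0.15 (interval -0.34 to 0.04, adjusted p = 0.261). Without U-HO1 control replicate 2 that became -0.24 with an adjusted p of 0.0413.

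The cytokine and both chains of its receptor differed between the lines, and the chains did so in opposite directions. IFNG read 5.78, 5.81 and 5.79 on control and 5.77, 5.86 and 5.68 on knockdown arrays of L-1236. On U-HO1 arrays it read 6.66, 6.53 and 6.24 for control and 6.44, 6.87 and 6.25 for knockdown, each above every array of L-1236. The spread within U-HO1 (0.64 from lowest to highest) was wider than within L-1236 (0.17). On control arrays IFNG was 1.61-fold higher in U-HO1 (log2 difference 0.69, 95% interval 0.37 to 1.00, limma adjusted p = 0.00352). Both levels are dim as stated above, so the fold is a ratio of measured values. Of the 350 olfactory receptor probe sets, 15 (4.29%) passed the same test.

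IFNGR1, the chain that binds the cytokine, read 6.94, 7.06 and 7.52 on control and 7.53, 7.22 and 7.23 on knockdown arrays of L-1236. In U-HO1 the values were 8.79, 9.14 and 9.13 on control and 9.33, 8.45 and 8.82 on knockdown arrays. The lowest U-HO1 array, knockdown replicate 2, still lay above the highest of L-1236. On control arrays IFNGR1 was 3.60-fold higher in U-HO1, with 9.02 ± 0.20 where L-1236 had 7.17 ± 0.31 (SD, n = 3), a log2 difference of 1.85 (95% interval 1.39 to 2.30, limma adjusted p = 3.72e-05).

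IFNGR2, the signalling chain, went the other way. It read 9.25, 9.61 and 9.61 on control and 9.59, 9.50 and 9.74 on knockdown arrays of L-1236. In U-HO1 the arrays stood close together, at 7.93, 7.91 and 7.94 on control and 8.02, 7.84 and 7.78 on knockdown. Its control means were 9.49 ± 0.21 and 7.93 ± 0.01 (SD, n = 3), 2.95-fold lower in U-HO1, a log2 difference of -1.56 (95% interval -1.79 to -1.33, limma adjusted p = 5.36e-07).

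Of the interleukin-12 and interleukin-27 genes, the receptor chain IL27RA differed. It read 8.52, 8.72 and 8.69 on control and 8.50, 8.89 and 8.89 on knockdown arrays of L-1236, and 8.05, 7.60 and 7.49 on control and 7.49, 7.79 and 7.58 on knockdown arrays of U-HO1. The lines did not overlap, with U-HO1 control replicate 1 the nearest to L-1236. The difference was 1.90-fold, lower in U-HO1 (log2 -0.93, 95% interval -1.26 to -0.60, limma adjusted p = 0.000609). IL12RB1, the chain shared by the receptors of interleukin-12 and interleukin-23, lay at 8.29 to 8.52 in L-1236 and 8.14 to 8.36 in U-HO1. Its log2 difference on control arrays was -0.05, and the interval from -0.23 to 0.13 holds no 1.5-fold change. IL12RB2, the signalling chain of that receptor, lay at 5.67 to 5.83 and 5.77 to 6.01, a difference of 0.12 (interval -0.05 to 0.29) at a dim level. IL12A differed by -0.31 with a wide interval, -0.77 to 0.16 (adjusted p = 0.372), with L-1236 arrays from 6.53 to 7.45.

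Counted together, 5 of the 10 genes passed an adjusted p of 0.05 between the lines on control arrays by limma, 2 higher in U-HO1 (IFNG, IFNGR1) and 3 lower (EOMES, IFNGR2, IL27RA), where 25.8% of all probe sets passed, 13.3% higher and 12.5% lower. The median log2 difference was -0.22 over the 10 genes and 0.00063 over all probe sets. For the same 5 genes the 6 arrays of U-HO1 and the 6 of L-1236 did not overlap, which was so for 23.3% of all probe sets. Arrays labelled knockdown, other arrays in the same fit, gave the same 5 calls in the same directions (24.7% of all probe sets passed). There the log2 differences were -1.46 for EOMES, 0.75 for IFNG, 1.54 for IFNGR1, -1.73 for IFNGR2 and -1.14 for IL27RA. Over both labels, the 5 again passed, with 35.1% of all probe sets.

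**Figure D2:**
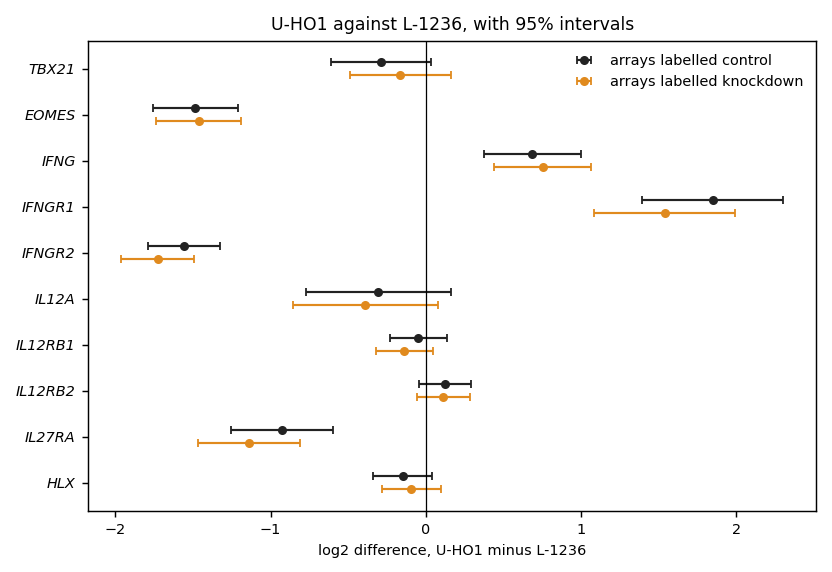
Log2 difference between U-HO1 and L-1236 (horizontal axis) for each of the 10 genes, with 95% intervals from the fit, on the 3 against 3 arrays labelled control (black) and labelled knockdown (orange). EOMES, IFNGR2 and IL27RA lie left of 0 and IFNG and IFNGR1 right of 0 under both labels, and the intervals of the other 5 genes include 0.

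In the order of the 4 group means, the groups of 1 line were neighbours for each of the 5 genes that passed, and their ranges overlapped. The step between the lines was the only one without overlap, 1.42 for EOMES, 0.69 for IFNG, 1.54 for IFNGR1, 1.56 for IFNGR2 and 0.93 for IL27RA on the log2 scale. For TBX21, HLX, IL12A, IL12RB1 and IL12RB2 every neighbouring pair of groups overlapped.

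The study's own comparisons ask which transcripts depend on GATA-3 in each line. None of the 10 genes differed between the labels by the submitters' selection (adjusted p up to 0.25 and a change of 1.5-fold or more). In L-1236 0 of the 10 passed by limma, as did 0% of all probe sets (1542 had an unadjusted p under 0.05), and 0 of the 10 had an unadjusted p under 0.05 (smallest 0.276, for IFNGR2). The log2 differences ran from -0.04 for TBX21 to 0.15 for IFNGR1, with 6 positive and 4 negative and a median of 0.06, against -0.0091 over all probe sets. In U-HO1 0 of the 10 passed, again with 0% of all probe sets (339 at an unadjusted p under 0.05), and 0 had an unadjusted p under 0.05 (smallest 0.467, for IFNGR1). There the differences ran from -0.16 for IFNGR1 to 0.08 for TBX21, with 4 positive and 6 negative and a median of -0.0046, against -0.0016 over all probe sets. Knockdown and control arrays overlapped for every one of the 10 genes in each line.

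The intervals bound what these arrays could have missed between the labels, given a spread that the fit shares between the lines. In L-1236 the 95% interval lay within a 1.5-fold change either way for 9 of the 10 genes, IFNGR1 being the exception (-0.30 to 0.61). In U-HO1 it did so for 9 of 10 too, again except for IFNGR1 (-0.61 to 0.30). For some genes the spread differed between the lines. The SD of IL12A was 0.42 on control and 0.43 on knockdown arrays of L-1236, and 0.07 and 0.13 in U-HO1. That of IFNG was 0.02 and 0.09 in L-1236 and 0.22 and 0.32 in U-HO1. In the line with the wider spread, the shared spread makes the intervals of such genes too narrow, so a 1.5-fold change is less firmly bounded there. TBX21 differed by -0.04 (-0.37 to 0.28) in L-1236 and by 0.08 (-0.24 to 0.41) in U-HO1. IFNG differed by -0.02 (-0.33 to 0.29) and 0.05 (-0.27 to 0.36), and EOMES by 0.05 (-0.23 to 0.32) and 0.07 (-0.21 to 0.34). The effect in U-HO1 minus that in L-1236 was largest for IFNGR1, at -0.31 (interval -0.95 to 0.34), and 0 of the 10 genes passed for that difference at an adjusted p of 0.25 by limma, with 0% of all probe sets and 0 of the 10 at an unadjusted p under 0.05. Since GATA3 itself overlapped between the labels, these bounds are on the labelled comparison and not on the effect of a lower GATA3.

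**Figure D3:**
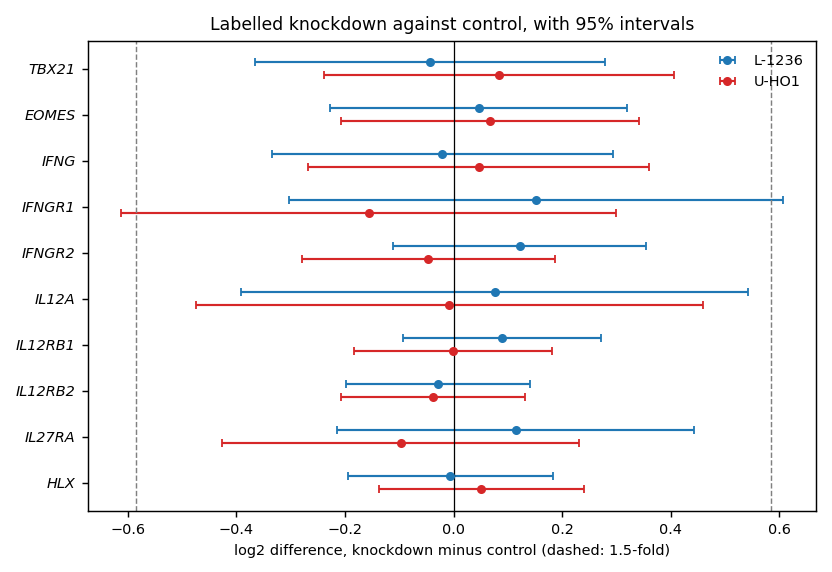
Log2 difference between arrays labelled knockdown and control (horizontal axis) for each of the 10 genes in L-1236 (blue) and U-HO1 (red), 3 against 3 arrays. The 95% intervals are from the fit, which shares a spread between the lines, and dashed lines mark a 1.5-fold change. Every interval includes 0, and the intervals of IFNGR1 alone cross a dashed line, on the positive side in L-1236 and on the negative side in U-HO1.

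GATA3 varied within each label, so its level was also set against each gene over the 6 arrays of a line. In L-1236 6 relations were negative and 4 positive, with Pearson's r from -0.71 (IL12A) to 0.59 (HLX). In U-HO1 4 were negative and 6 positive, from -0.59 (EOMES) to 0.68 (IFNGR2). None of the 20 passed an exact two-sided permutation test, with a smallest p of 0.107 and a smallest adjusted p of 0.75 for Pearson's r and 0.849 for Spearman's rho. For TBX21 and GATA3 in L-1236 r was -0.70 (exact p = 0.107, adjusted 0.75) and rho -0.60 (exact p = 0.242, adjusted 0.849). Without the 2 arrays farthest from the GATA3 median, which leaves 4 arrays, r was -0.91. Within the labels r was -0.90 on the 3 control and -0.51 on the 3 knockdown arrays. In U-HO1 r was 0.01 (exact p = 0.969, adjusted 0.974) and rho -0.26 (exact p = 0.658, adjusted 0.878). It was 0.93 on control and -0.75 on knockdown arrays and -0.35 without the 2 farthest, so the labels went opposite ways.

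IL12A had the widest range of the 10 genes within a line. In L-1236 it read 6.53, 6.76 and 7.35 on control replicates 1, 2 and 3 and 6.69, 7.45 and 6.73 on knockdown. Control replicate 3 and knockdown replicate 2 stood above the other 4 arrays, 1 from each label. GATA3 was lowest on the same 2 arrays, at 9.95 and 10.00, against 10.24 to 10.80 on the other 4. Over the 6 arrays r between IL12A and GATA3 was -0.71 (exact permutation p = 0.11, adjusted 0.75). The 2 arrays farthest from the GATA3 median were knockdown replicate 1 and control replicate 2. Without them r was -0.98 over the 4 arrays left, which still include the 2 with the highest IL12A. The part of GATA3 in the IL12A pattern was not tested. In U-HO1 the IL12A values ran only from 6.47 to 6.71, and these are dim. In L-1236 the values 6.53 and 6.69 also lay inside the olfactory receptor span, and 6.73 and 6.76 lay just above its upper end. Only the 2 high arrays stood clear of it.

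The genes whose pattern was most like that of IL12A, over the 12 arrays after the mean of each line was taken off, were CCL5 (Pearson's r = 0.98), CPNE2 (0.96) and CXCL11 (0.96). They were picked as the highest of 18404 named genes, and the r expected by chance was not worked out. CCL5 and CXCL11 encode chemokines that draw T-helper 1 cells and are known to be induced by interferons. CXCL11 read 5.78, 6.20 and 9.24 on control and 6.62, 9.07 and 6.85 on knockdown arrays of L-1236, and CCL5 read 8.92, 9.49 and 11.35 and 9.26, 11.33 and 9.80. The same 2 arrays were the highest for all of these genes. In L-1236 alone, over 6 arrays, r with IL12A was 0.99 for CCL5, 0.99 for CPNE2 and 0.98 for CXCL11. In U-HO1 it was 0.95, 0.23 and 0.67 over narrower ranges. CXCL11 lay inside the olfactory receptor span on every U-HO1 array (5.84 to 6.31) and, in L-1236, at 5.78, 6.20 and 6.62. The promoter window of CXCL11 and of CPNE2 did not hold the response-element core marked above for IL12A. No window was at hand for CCL5, so it was not searched. The deviations of the 2 high arrays of L-1236 from their group means over all probe sets had r = 0.21. For the pairs of the same replicate number in L-1236 this r was 0.17, -0.40 and -0.22, and the 2 high arrays were picked after the values were seen. Of the 6 arrays the 2 high ones had the highest means over the 40 other pathway genes left without CXCL11, at 8.66 and 8.58 against 8.24 to 8.50, and over the 12 Hodgkin markers, at 9.92 and 9.91 against 9.71 to 9.80. The part of other array properties in this pattern was not tested.

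**Figure D4:**
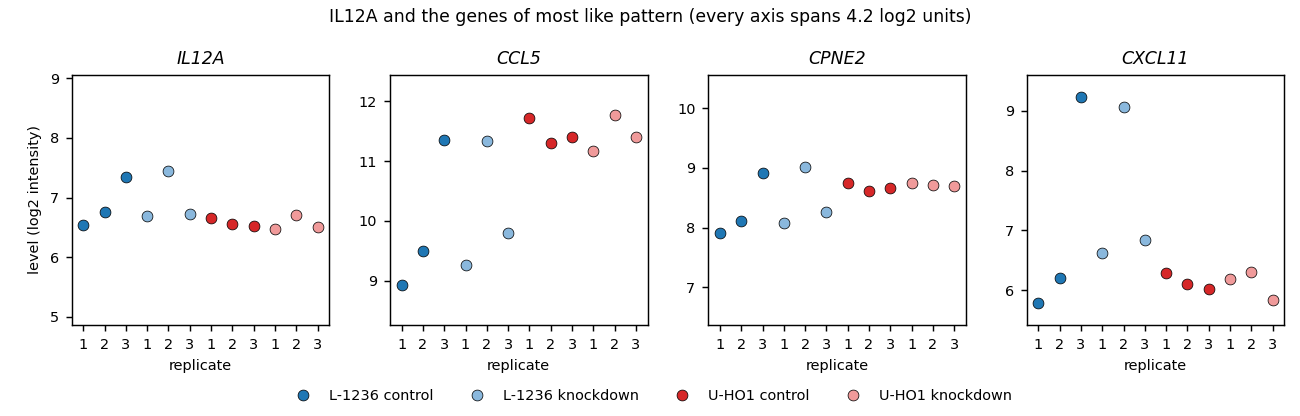
Log2 intensity (vertical axes, all of the same span) of IL12A, CCL5, CPNE2 and CXCL11 on each of the 12 arrays, by replicate number (horizontal axes) and coloured by line and label. In all 4 panels L-1236 control replicate 3 and knockdown replicate 2 stand above the other L-1236 arrays, at 7.35 and 7.45 for IL12A and 9.24 and 9.07 for CXCL11.

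Within U-HO1 several of the 10 genes rose and fell together from array to array. The arrays labelled control replicate 1 and knockdown replicate 2 were the highest pair of the 6 for TBX21, IFNG, IL12A, IL12RB1 and IL27RA. The means of IFNG and IL12A in U-HO1 lay inside the olfactory receptor span, and IL12A ranged over 0.24 only. Over the 6 arrays r was 0.92 between TBX21 and IL12A, 0.87 between TBX21 and IFNG and 0.86 between TBX21 and IL27RA. IFNGR1 ran opposite, at -0.87 with TBX21 and -0.90 with IL12RB1, and its lowest arrays were the same pair. Over all 45 pairs of genes r had a median of 0.32 in U-HO1 against 0.08 in L-1236, where TBX21 with IL12A was the highest pair (0.82) and TBX21 with IFNG had 0.35. These are descriptions over 6 arrays, and each array gives the values of all genes of a pair. The deviations of this pair of U-HO1 arrays over all probe sets had r = 0.38. For the pairs of the same replicate number in U-HO1 it was -0.17, 0.06 and 0.32, and the pair was picked after the values were seen. The part of such joint deviation in the shared pattern was not tested.

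The genes most like TBX21 over the 12 arrays, with line means taken off, were AVPI1 (r = 0.92), the phosphatase gene DUSP5 (0.91) and DOK4 (0.90). For DUSP5 r was 0.92 in L-1236 and 0.93 in U-HO1, over ranges of 0.71 and 1.10. For AVPI1 it was 0.95 and 0.92, and for DOK4 0.70 and 0.95. Most like IFNG were EPOP (0.93), CNFN (0.92) and SHROOM1 (0.91), of which CNFN and SHROOM1 moved by less than 0.30 within either line. In L-1236 alone r was 0.41 for EPOP, 0.95 for CNFN and 0.78 for SHROOM1, and in U-HO1 it was 0.96, 0.97 and 0.97. IFNG itself was dim in both lines. All these genes are the highest of 18404 named genes over 12 arrays. How high the top r would run by chance was not worked out.

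The other genes of the pathway were read from a list of 46, of which 41 had a probe set with a single symbol. The others are not analysed here. On control arrays 21 of the 41 passed an adjusted p of 0.05 between the lines, 14 higher and 7 lower in U-HO1, beside 13.3% and 12.5% of all probe sets. Of the 21, 5 (STAT4, IDO1, IL23R, CXCL9 and IL12B) had a control mean inside the olfactory receptor span in at least 1 line, which leaves 10 higher and 6 lower. The median log2 difference of the list was -0.01, against 0.00063 over all probe sets. Between the labels 0 of the 41 passed in L-1236 and 0 in U-HO1.

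Upstream in the pathway, STAT4, which carries the interleukin-12 signal, read 6.53 ± 0.15 in L-1236 and 9.70 ± 0.11 in U-HO1 (SD, n = 3), higher in U-HO1 (limma adjusted p = 2.13e-09). Its L-1236 level lay inside the olfactory receptor span, so the 8.99-fold ratio is of measured values only. The chain that activates it, IL12RB2, was dim in both lines. RUNX1 was 4.21-fold higher and RUNX3, a partner of T-bet, 1.66-fold lower. IL6ST, the partner of IL27RA, was lower as IL27RA was, by 1.81-fold. The kinases JAK1, JAK2 and TYK2 differed by -0.22, -0.43 and -0.20 without passing on control arrays, and JAK1 passed on knockdown arrays at -0.37 (adjusted p = 0.00641).

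Downstream, several genes known to be induced by interferon gamma stood higher in U-HO1. IDO1, which degrades tryptophan, was higher at 8.21 ± 0.38 against 5.75 ± 0.05 (SD, n = 3, limma adjusted p = 2.08e-07), a measured ratio of 5.51 against a dim L-1236 level. IRF8 was 2.92-fold higher, IRF1 2.26-fold and CIITA, the transactivator of MHC class II, 1.76-fold. The receptor CXCR3, another gene of the list, was 2.18-fold higher. GBP4 was 3.33-fold higher on control arrays (adjusted p = 0.0387) but did not pass on knockdown arrays (log2 1.19, adjusted p = 0.163), and IL12B (0.0867) and CXCL9 (0.0546) did not pass there either. Others stood lower in U-HO1: the peptide transporter TAP1 by 2.34-fold and the immunoproteasome subunit PSMB9 by 1.94-fold. The cytokines LTA and TNF, also of the list, were 5.62-fold and 3.12-fold lower. CXCL10 differed by -0.12 (SE 0.33) and did not pass. Neither did GBP5 (log2 difference 0.60), IRF9 (0.22), ICAM1 (-0.06), WARS1 (-0.16) or CXCL11 (-0.94) on control arrays. On the T-helper 2 side, 7 of 12 listed genes passed between the lines on control arrays. In U-HO1 3 were higher and 4 lower, beside 13.3% and 12.5% of all probe sets. Among the 7 were IL4R, lower by a log2 difference of -1.17, and IL5, which read 7.87 in U-HO1 and a dim 5.52 in L-1236.

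**Figure D5:**
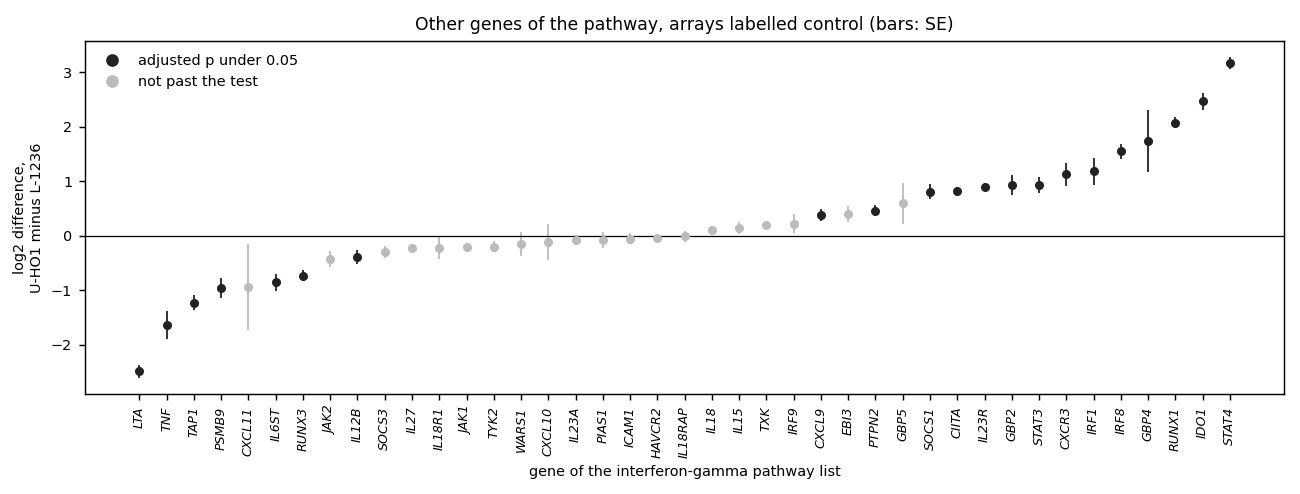
Log2 difference between U-HO1 and L-1236 on control arrays (vertical axis, bars are SE) for the 41 measured genes of the pathway list (horizontal axis), ordered by value; black points had an adjusted p under 0.05 and grey points did not. The black points are 14 above 0 and 7 below 0, with LTA at -2.49; STAT4, IDO1, IL23R, CXCL9 and IL12B were dim in at least 1 line, so the size and rank of their differences are of measured values only.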

How the data were processed

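The values are the deposited table of the series, 32321 probe sets on 12 one-colour Affymetrix arrays, which the authors normalized and which are read as log2, since they span 3.86 to 13.99. The submitters' processing notes name R 2.8.1. The sources used here do not say how background, normalization and probe summary were handled, so fold sizes rest on that reading. Probe sets were named through the platform annotation (19158 with 1 symbol, 1388 with several, 11775 with none). The brightest probe set stood for a gene. Group means of all 12 arrays were fitted together (limma 3.58.1, R 4.3.3), with Benjamini-Hochberg adjustment over all probe sets, and 95% intervals came from that fit. It was tested on simulated data. GATA3 relations used exact permutation of pairings. Named were all 10 genes, pathway genes past 2-fold with up to 8 each way, and the 3 genes most like TBX21, IFNG and the most variable member; other pathway genes and list markers were picked after their values were seen. Members and lists were chosen with earlier results of these data known. Replicate numbers were not used as pairs in the main fit. Deviations from the group means, between samples of the same number, correlated at over 0.1 in 2 of 6 pairs (from -0.40 to 0.32). With 3 samples per group this cannot settle whether samples were paired. Alternatives were a replicate block, quantile normalization, equal array medians, no dim probe sets, probe set means, only the groups compared, a trended and robust prior, array weights, both labels, each array left out and, added after the data had been seen, arrays labelled knockdown between the lines.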

Additional observations from a re-analysis of the deposited data

How the results depend on the processing

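The 5 calls between the lines were made under each alternative that tested the gene, the highest adjusted p being 0.0179, for IFNG, which with IL12A and IL12RB2 was not tested when dim probe sets were left out. With the replicate block 5 of the 10 genes and 7568 probe sets passed between the lines, and 0 between the labels. Over both labels 11 pathway genes were lower in U-HO1, against 7. In L-1236 between the labels, 1 probe set passed with array quality weights, and 0 to 22 with single arrays left out (22 without control replicate 3, 1 without U-HO1 knockdown replicate 1), but 0 of the 10 genes. Uncalled differences near 0 between the labels changed sign, and the cause was not tested. In L-1236 quantile normalization gave -0.062 for EOMES, 0.019 for IFNG, 0.013 for IL12RB2 and 0.035 for HLX. Equal medians gave 0.019 for TBX21, 0.042 for IFNG, 0.034 for IL12RB2 and 0.057 for HLX. Array weights gave 0.013 for IFNG and HLX. In U-HO1 array weights gave -0.070 for TBX21 and -0.16 for IFNG, and quantile normalization 0.0036 for IL12RB1. With single arrays left out they ran in L-1236 from -0.099 to 0.047 for TBX21, -0.030 to 0.19 for EOMES, -0.064 to 0.023 for IFNG, -0.17 to 0.31 for IL12A, -0.075 to 0.0050 for IL12RB2 and -0.043 to 0.037 for HLX. The same ranges were in U-HO1 -0.062 to 0.23 for TBX21, -0.13 to 0.18 for IFNG, -0.39 to 0.049 for IFNGR1, -0.12 to 0.0023 for IFNGR2, -0.081 to 0.039 for IL12A, -0.048 to 0.062 for IL12RB1, -0.12 to 0.0027 for IL12RB2, -0.21 to 0.070 for IL27RA and -0.024 to 0.14 for HLX. Without the 2 arrays farthest from the GATA3 median, r with GATA3 in U-HO1 was -0.35 for TBX21 and -0.017 for IFNG. For TBX21 in L-1236, r after quantile normalization was -0.60 over all arrays of the line (exact permutation p = 0.207, adjusted 0.828). Without the 2 farthest arrays it was -0.57, against -0.91 for the values as given. The dim levels of IFNG and IL12RB2 and the 3 arrays per group limit what could be seen.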
